A study of Homo sapiens with 36 samples.

Results

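The mRNAs of 9 enzymes of the tricarboxylic acid (TCA) cycle were followed in 2 human colorectal adenocarcinoma cell lines under chemical hypoxia. They were the count-table rows with the symbols CS, IDH1, IDH2, IDH3A, OGDH, SUCLG1, FH, MDH1 and MDH2, which made 9 of 60591 genes. The rule used symbols and no measured value, but members and pathway lists were chosen with earlier results of these data known. All 9 passed the filter on low counts in each fit. The series held 18 mRNA libraries, 3 biological replicates in each of 6 groups. Before treatment, Caco-2 cells were grown for 21 days to differentiate, whereas no such step was given for HT-29 cells, so that line and culture state cannot be told apart. For 24 h each line received 300 µM CoCl2 (cobalt chloride, added from water), 5 µM of the oxyquinoline derivative 4896-3212 (Oxy, added in DMSO), or DMSO at 0.5 µl per ml alone (control). The labels name DMSO for Oxy and control cells, while the study's methods also name it for CoCl2 cells. Both agents are used to activate hypoxia-inducible factor (HIF).

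The TCA cycle oxidizes acetyl groups in the mitochondrial matrix and passes the electrons to the respiratory chain. Citrate synthase (CS) starts it, isocitrate dehydrogenases and the 2-oxoglutarate dehydrogenase complex release carbon dioxide, and succinyl-CoA ligase, fumarase (FH) and malate dehydrogenase return the carbon to oxaloacetate. Several steps have a counterpart outside the mitochondrion: IDH1 and MDH1 are the cytosolic forms of IDH2 and MDH2, and FH acts in both compartments. HIF is stabilized when prolyl hydroxylases stop, and these enzymes need iron, oxygen and 2-oxoglutarate, an intermediate of the cycle. Under HIF activation, glycolysis and lactate formation are known to rise while PDK1, which inhibits pyruvate dehydrogenase, keeps pyruvate from entering the cycle as acetyl-CoA.

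The libraries held 12925719 to 22332639 counts, and the 9 genes had 175 to 11936 counts in a single library. Over all genes, 3 libraries stood apart from their group. The chi-square per degree of freedom against their replicates was 8.79 and 10.7 for Caco-2 CoCl2 replicate 1, 9.51 and 12.6 for Caco-2 Oxy replicate 1, and 6.1 and 5 for HT-29 control replicate 3, against at most 3.83 for the other pairs. Results that rest on them are given with and without them. Epithelial genes were present in control cells of both lines, from CDX2 at 13.4 CPM (a gene's counts relative to library size) to KRT8 at 2291 CPM in HT-29, with KRT20 low in Caco-2 (5.43 CPM). SI, an enterocyte enzyme, was at 284 CPM in Caco-2 and 13.4 CPM in HT-29. PTPRC, which marks leukocytes, was at 0 to 0.0487 CPM, and the 4 fibroblast markers summed to 32.6 to 34.7 CPM in control Caco-2 libraries, with COL1A1 at 24.6, PDGFRA at 8.15, COL3A1 at 0.795 and COL1A2 at 0 CPM, and to 1.35 to 1.54 CPM in HT-29, where the other 3 were at 0 beside COL1A1. The summed level of 5 enterocyte markers went from 297.5 to 375.6 CPM in control Caco-2 libraries to 192.2 to 225.8 CPM with CoCl2 and 254.6 to 337.7 CPM with Oxy, and in HT-29 from 16.4 to 17.1 CPM to 8.7 to 9.46 and 8.38 to 9.62 CPM. SI made up most of this sum in Caco-2, where with CoCl2 4 of the 5 markers fell and APOA4 rose from 12.8 to 60.1 CPM, with 31.9 CPM under Oxy. The part of this shift in the results below was not tested. Of 5 textbook HIF targets, NDRG1, SLC2A1 and VEGFA rose with each agent in each line. CA9 rose with both agents in HT-29 and was not tested in Caco-2. PDK1 rose with both agents in Caco-2 and with CoCl2 in HT-29, but with Oxy in HT-29 its log2 fold change was -0.06 (SE 0.0656, FDR 0.462).

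Scaling of the libraries bore on the direction of several genes. Levels below are CPM after scaling by TMM, edgeR's trimmed mean of log ratios between libraries, with 3 libraries per group. These levels and their overlaps used scaling over all 18 libraries, whereas fold changes within a line came from a fit of its own 9. For CoCl2 in HT-29, the fit of all 18 libraries shifted the log2 fold changes of all genes by a median of -0.108. Levels and fold changes can therefore disagree there. A gene was taken to rise or fall when edgeR's quasi-likelihood test gave a false discovery rate (FDR) under 0.05, and it was called when its change also exceeded 2-fold, the limits of the study. Without TMM, on library size only, the log2 fold changes of all genes shifted by a median of -0.321 for CoCl2 and -0.153 for Oxy in Caco-2. In HT-29 the shifts were -0.633 and -0.136. As a plain share of all counts, the 9 genes together made 0.205% ± 0.00251 (SD, n = 3) in control Caco-2, 0.114% ± 0.00381 with CoCl2 and 0.155% ± 0.00182 with Oxy. In HT-29 the shares were 0.128% ± 0.00225, 0.097% ± 0.000668 and 0.129% ± 0.00299. IDH1 had the most counts of the 9 in every group and so weighs most in these shares. Changes below are relative to TMM, and each direction that library size alone turned is named. Counts on library size alone have no share of all genes on that scale beside them. They show how far the scaling matters and are not read as a result about the genes counted. A lower level in a culture can come from less RNA per cell or from fewer cells of a kind, which these bulk samples cannot separate.

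**Figure D1:**
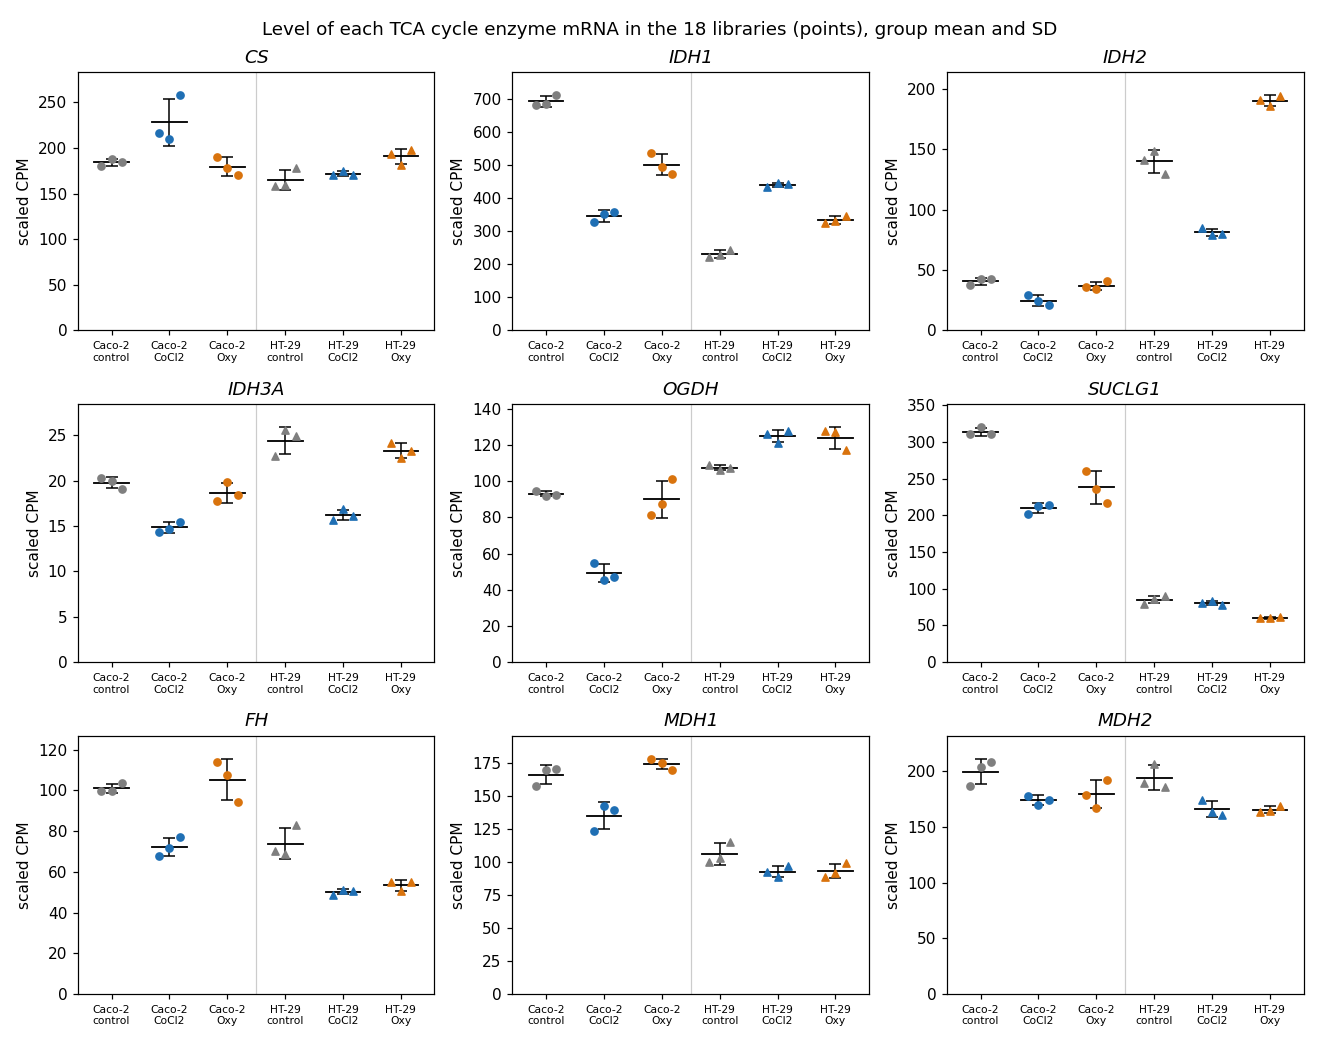
Level of each enzyme mRNA (y axis, TMM-scaled CPM from 0) in the 18 libraries, by line and treatment (x axis), with the group mean and SD of 3 replicates. IDH1 fell from 693 to 346 CPM with CoCl2 in Caco-2 and rose from 230.4 to 440.3 CPM in HT-29, both directions also on library size alone, whereas OGDH in HT-29 rose with CoCl2 under TMM and fell on library size alone.

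In control cells, the lines differed most in IDH1, IDH2 and SUCLG1. Between genes, levels are compared only as RPKM, which divides reads by transcript length and depth and was computed from the deposited log2 values. In control Caco-2 cells IDH1 stood highest at 152 ± 3.03 RPKM (SD, n = 3), above 98.9% of the genes listed, followed by SUCLG1 at 78.2 ± 1.59 RPKM. IDH2 was near the end of that order at 15.2 ± 1.07 RPKM, and IDH3A closed it at 3.01 ± 0.0993 RPKM. In control HT-29 cells MDH2 (52.5 ± 3.26 RPKM), IDH2 (49.5 ± 3.74 RPKM) and IDH1 (48.1 ± 2.02 RPKM) overlapped at the top, and MDH1, OGDH and SUCLG1 overlapped at 20.2 to 21 RPKM. IDH3A was again the lowest at 3.53 ± 0.196 RPKM. The RPKM values had been scaled within each line, so they order genes within a line only.

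Across lines, 8 of the 9 genes differed between the control groups, where 79.1% of all 17921 genes tested did, and 3 of 9 were called, against 45.8% of all genes. SUCLG1 was lower in HT-29 by a log2 difference of -1.88 (SE 0.0659, FDR 2.16e-23) and IDH1 by -1.59 (SE 0.0618, FDR 4.34e-22), while IDH2 was higher by 1.78 (SE 0.0831, FDR 7.82e-20). MDH1 (-0.64), FH (-0.45) and CS (-0.16) were lower and IDH3A (0.31) and OGDH (0.21) higher. MDH2 did not pass the test, at -0.04 with a 95% interval from -0.166 to 0.082. The difference of CS did not pass without HT-29 control replicate 1 (0.165), HT-29 control replicate 2 (0.16), Caco-2 control replicate 2 (0.104) or Caco-2 control replicate 3 (0.0797). Without the filter on low counts it did not pass either.

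With CoCl2, the enzymes moved mostly downwards in Caco-2 and in both directions in HT-29. In Caco-2, 8 of 9 fell and CS rose, where 64.7% of all 16034 genes tested changed, 31.6% upwards and 33.1% downwards. None of the 9 was called, against 23.4% of all genes, although IDH1 lay at the limit. The groups of all 9 were free of overlap, against 69% of all genes. The median log2 fold change of the 9 was -0.48, and that of all genes tested was -0.03. In HT-29, 3 rose and 4 fell, where 82.8% of all 15812 genes changed, 40.7% upwards and 42.2% downwards. IDH1 was called there, against 41.3% of all genes, but lay under 2-fold without the filter (0.985), with limma-trend (0.94 and 0.95), in the fit of all 18 libraries (0.93) and on library size alone (0.41). In HT-29, 7 of 9 did not overlap, against 83% of all genes. The medians were -0.09 for the 9 and -0.03 for all genes. On library size alone, 8 of 9 fell in Caco-2 and 8 of 9 fell in HT-29, with IDH1 the only riser there. On that scale the median of all genes was -0.351 in Caco-2 and -0.663 in HT-29, against -0.805 and -0.725 for the 9.

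With Oxy, fewer enzymes moved in Caco-2 than in HT-29, a contrast of counts that was not itself tested. In Caco-2, IDH1 and SUCLG1 fell, making 2 of 9 against 50.4% of all genes, 25.7% upwards and 24.7% downwards. The same 2 of 9 did not overlap with control, against 59.4% of all genes, and the medians were -0.09 for the 9 and -0.02 for all genes. In HT-29, 4 rose (IDH1, IDH2, CS and OGDH) and 4 fell (SUCLG1, FH, MDH2 and MDH1), making 8 of 9 against 68.8% of all genes, 34.7% upwards and 34% downwards. The same 8 did not overlap with control, against 71.1% of all genes, and the medians were -0.06 for the 9 and 0.01 for all genes. On library size alone, 5 fell and none rose in Caco-2, and 2 rose and 5 fell in HT-29. The medians of all genes were then -0.176 in Caco-2 and -0.13 in HT-29, against -0.238 and -0.192 for the 9. None of the 9 was called with Oxy in either line, where 11.7% of all genes were called in Caco-2 and 17.1% in HT-29. The comparisons with each agent in a line share the same 3 control libraries.

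**Figure D2:**
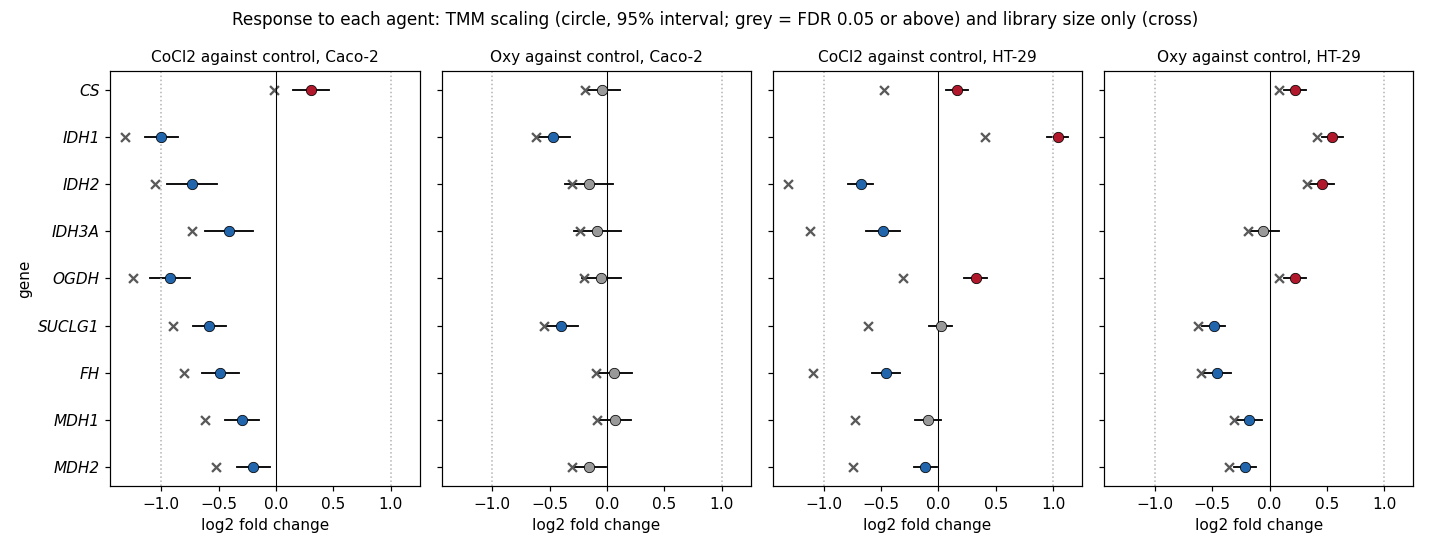
Log2 fold change against control (x axis) of each enzyme mRNA (y axis) in 4 comparisons; circles are TMM values with 95% intervals (grey where FDR was 0.05 or above), crosses the values on library size alone, and dotted lines the 2-fold limit. With CoCl2 in Caco-2 8 circles lie below 0, and the cross of CS lies at -0.01; with CoCl2 in HT-29 the crosses of CS, OGDH and SUCLG1 lie below 0 while their circles lie above it.

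CS, which joins acetyl-CoA to oxaloacetate, rose with CoCl2 in Caco-2, the other 8 enzymes having fallen. Its level was 180.3, 188 and 185 CPM in control Caco-2 cells and 216, 209.9 and 258 CPM with CoCl2. The groups did not overlap, and the log2 fold change was 0.31 (SE 0.0795, FDR 0.00163), which was -0.01 on library size alone. With Oxy the Caco-2 libraries held 190.4, 178 and 170.2 CPM and overlapped the control (log2 fold change -0.04, 95% interval -0.197 to 0.115). In HT-29, CS was at 159, 159 and 178 CPM in control cells, 170.1, 175 and 170.4 CPM with CoCl2, and 193, 181 and 198 CPM with Oxy. The Oxy libraries lay above all controls (0.22, SE 0.05, FDR 0.000367), and FDR was 0.125 on library size alone. The CoCl2 libraries overlapped the controls on levels scaled over all 18 libraries. The rise of 0.16 (SE 0.0507, FDR 0.0048) came from the fit of HT-29 alone. It became a fall of -0.47 on library size alone. The rise missed the threshold in the fit of all 18 libraries (FDR 0.489), without the filter (0.152) and with limma-trend at both pseudocounts (0.172).

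IDH1, the cytosolic NADP-dependent isocitrate dehydrogenase, moved in opposite directions in the 2 lines with both agents. In Caco-2 its level was 683, 685 and 711 CPM in control cells, 326, 353 and 359 CPM with CoCl2, and 536, 495 and 474 CPM with Oxy. All 3 groups were apart from each other, with CoCl2 lowest. The log2 fold change was -0.9998 with CoCl2 (SE 0.0727, FDR 1.7e-11), 0.5001 of the control level and so just inside the 2-fold limit, and -0.47 with Oxy (SE 0.072, FDR 8.17e-06). In HT-29 the controls held 220.5, 227 and 244 CPM, the CoCl2 libraries 434, 445 and 442 CPM, and the Oxy libraries 324, 329.5 and 347 CPM. There the order was turned, with every CoCl2 library above every Oxy library and these above the controls. The rise was 1.04 with CoCl2 (SE 0.0463, FDR 2.18e-17) and 0.55 with Oxy (SE 0.046, FDR 5.24e-11). IDH1 kept its direction and its FDR under 0.05 in each line and with each agent on library size alone, where the 4 values were -1.32, -0.62, 0.41 and 0.41.

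The bases before the IDH1 start are shown because IDH1 was the gene whose response differed most between the lines, and those before SUCLG1 because it is the member that fell with Oxy in both. RefSeq promoter entries on GRCh38.p14 were found for 8 of the 9 members, with no entry for OGDH. Each line runs 5′ to 3′ on the gene's strand from 250 to 61 bases before the start, with capitals on every match to a searched motif.
IDH1, chr2:208255132-208255321, minus strand: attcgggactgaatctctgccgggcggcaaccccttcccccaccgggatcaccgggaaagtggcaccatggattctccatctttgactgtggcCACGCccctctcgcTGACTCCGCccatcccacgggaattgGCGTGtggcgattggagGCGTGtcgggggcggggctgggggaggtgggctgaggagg
SUCLG1, chr2:84459341-84459530, minus strand: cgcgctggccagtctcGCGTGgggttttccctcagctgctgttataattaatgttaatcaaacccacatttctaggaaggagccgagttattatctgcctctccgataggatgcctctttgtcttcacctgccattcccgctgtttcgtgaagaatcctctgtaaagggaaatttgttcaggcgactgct
The IDH1 stretch lies inside the annotated bounds of IDH1, whose longer transcripts start upstream, and overlaps an exon of the antisense RNA IDH1-AS1. The SUCLG1 stretch overlaps no annotated exon and is intronic in a longer SUCLG1 transcript.

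Both strands of the 250 bases before each start were searched for the hypoxia response cores ACGTG and GCGTG, the E-box CACGTG (which contains ACGTG), the antioxidant response core TGACNNNGC and the ETS core CCGGAAG. The IDH1 stretch held GCGTG at 157, 117 and 100 bases before the start and TGACNNNGC at 143 bases. A second IDH1 start in the table, whose window is not printed, had ACGTG at 111 bases and no GCGTG. The SUCLG1 stretch held GCGTG at 234 bases. GCGTG also occurred in the windows of IDH2, IDH3A and FH, and CCGGAAG occurred in that of MDH2 at 113 and 69 bases. ACGTG or GCGTG was found for 5 of 8 members, where any window of a gene counted and IDH1 and MDH1 had 2 each. It was found in 43.2% of all 35116 RefSeq promoter windows of this length, a share per window and not per gene. GCGTG alone was in 32.2% of windows, TGACNNNGC in 10.9% and CCGGAAG in 8.52%. These matches describe the letters of the windows and are no evidence of binding.

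IDH2, the mitochondrial NADP-dependent form, fell with CoCl2 in both lines and rose with Oxy in HT-29. Its Caco-2 level was 37.4, 42.4 and 42.5 CPM in control cells, 29.1, 24.2 and 20.8 CPM with CoCl2, and 35.7, 33.9 and 40.5 CPM with Oxy. The CoCl2 libraries lay below the controls (log2 fold change -0.73, SE 0.111, FDR 3.42e-06), and the Oxy libraries overlapped them (-0.16, 95% interval -0.365 to 0.0547). HT-29 held 141, 149 and 129.7 CPM in control cells, 84.7, 78.9 and 79.6 CPM with CoCl2, and 191, 186 and 194 CPM with Oxy. These 3 groups did not overlap, and the values were -0.68 with CoCl2 (SE 0.0556, FDR 1.26e-11) and 0.46 with Oxy (SE 0.0524, FDR 1.7e-08). Between the agents, IDH2 in HT-29 was lower with CoCl2 by -1.14 (SE 0.0552, FDR 3.02e-16), the only member called in that comparison.

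IDH3A, the catalytic subunit of the NAD-dependent isocitrate dehydrogenase of the cycle, was the least abundant member per length and fell with CoCl2 in both lines. Caco-2 libraries held 20.2, 19.9 and 19.1 CPM in control cells and 14.4, 14.7 and 15.5 CPM with CoCl2, and HT-29 libraries 22.7, 25.5 and 25 CPM and then 15.7, 16.8 and 16.1 CPM. The groups were apart in both lines, at log2 fold changes of -0.41 (SE 0.108, FDR 0.00199) and -0.49 (SE 0.0762, FDR 1.96e-06). With Oxy the values were -0.09 in Caco-2 (95% interval -0.292 to 0.122) and -0.06 in HT-29 (-0.191 to 0.08), and both groups overlapped their controls.

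OGDH, the E1 subunit of the 2-oxoglutarate dehydrogenase complex, fell with CoCl2 in Caco-2 and rose with both agents in HT-29. Control Caco-2 cells held 94.5, 92 and 92.2 CPM, CoCl2 cells 54.9, 45.6 and 46.9 CPM, and Oxy cells 81.3, 87.4 and 101 CPM. Only the CoCl2 libraries were clear of the controls (-0.92, SE 0.0894, FDR 2.83e-09). In HT-29 the controls at 109, 106 and 107 CPM lay below the CoCl2 libraries (126, 121 and 128 CPM) and the Oxy libraries (128, 127 and 117 CPM). The rises were 0.32 with CoCl2 (SE 0.0499, FDR 1.39e-06), which turned to -0.31 on library size alone, and 0.22 with Oxy (SE 0.0493, FDR 0.00033), whose FDR was then 0.139.

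SUCLG1, the alpha subunit of succinyl-CoA ligase, fell with Oxy in both lines and with CoCl2 in Caco-2. It was at 310, 319.9 and 310.1 CPM in control Caco-2 cells, 202, 213 and 214 CPM with CoCl2, and 261, 236 and 217 CPM with Oxy. Both treated groups lay below the controls, at -0.58 (SE 0.0745, FDR 2.9e-07) and -0.40 (SE 0.0742, FDR 8.99e-05). HT-29 held 79.7, 86.2 and 90.04 CPM in control cells, 80.5, 82.7 and 78.4 CPM with CoCl2, and 59.6, 59.8 and 62 CPM with Oxy. There only the Oxy libraries were below the controls (-0.49, SE 0.0509, FDR 3.54e-09). The CoCl2 value of 0.02 (95% interval -0.0773 to 0.122) was -0.61 on library size alone and -0.085 in the fit of all 18 libraries.

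FH, which hydrates fumarate to malate, fell with CoCl2 in both lines and with Oxy in HT-29. Its Caco-2 levels were 99.5, 99.8 and 104 CPM in control cells, 67.9, 71.5 and 76.8 CPM with CoCl2, and 114, 108 and 94.2 CPM with Oxy. The CoCl2 fall was -0.48 (SE 0.0817, FDR 1.51e-05), and the Oxy value of 0.06 (95% interval -0.0999 to 0.215) was -0.10 on library size alone. In HT-29 the controls at 70.1, 68.8 and 82.8 CPM lay above 48.9, 51.04 and 50.7 CPM with CoCl2 and 54.9, 50.4 and 55.1 CPM with Oxy. Replicate 3 was the highest of these controls and also the library that stood apart. The falls were -0.46 (SE 0.0624, FDR 2.11e-07) and -0.46 (SE 0.0603, FDR 1.95e-07), and both kept an FDR under 0.05 without it.

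Of the malate dehydrogenases, MDH1, the cytosolic form, held 158, 169.9 and 171 CPM in control Caco-2 cells and 123, 143 and 139.6 CPM with CoCl2, a fall of -0.30 (SE 0.0743, FDR 0.00125). With Oxy, at 178, 175 and 170.2 CPM, it did not pass the test (0.07, 95% interval -0.0782 to 0.211), and the sign turned on library size alone. In HT-29 the controls held 99.8, 103 and 115 CPM, the CoCl2 libraries 92.4, 88.7 and 97.2 CPM, and the Oxy libraries 89, 91.5 and 99.3 CPM. Both treated groups were below the controls on levels scaled over all 18 libraries. In the fit of HT-29 alone, only Oxy passed the test (-0.18, SE 0.0561, FDR 0.00743, and 0.0663 without HT-29 control replicate 3). The CoCl2 value was -0.09 (SE 0.0571, FDR 0.138). It passed on library size alone (-0.72, FDR 4.61e-12), without the filter (FDR 0.0414), with limma-trend at both pseudocounts (0.0161), in the fit of all 18 libraries (0.0107) and without HT-29 control replicate 1 (0.0468).

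MDH2, the mitochondrial malate dehydrogenase that closes the cycle, had its 6 group means within 1.21-fold of each other, and each group overlapped the next in the order of the means. With CoCl2 it went from 187, 204 and 208 CPM to 178, 169.5 and 174 CPM in Caco-2, a fall of -0.20 (SE 0.0739, FDR 0.0218). It did not pass without Caco-2 control replicate 2 (FDR 0.0754), Caco-2 control replicate 3 (0.101), Caco-2 CoCl2 replicate 2 (0.0866) or Caco-2 CoCl2 replicate 3 (0.0529). In HT-29 it went from 189.8, 207 and 186 CPM to 174.5, 163 and 161 CPM with CoCl2 and to 164, 164 and 169 CPM with Oxy. All treated libraries were below the controls there on levels scaled over all 18 libraries. The fall with Oxy was -0.21 (SE 0.0504, FDR 0.000541). The fall with CoCl2 was -0.12 (SE 0.0509, FDR 0.0393) and did not pass without HT-29 control replicate 2 (FDR 0.231), HT-29 CoCl2 replicate 2 (0.129) or HT-29 CoCl2 replicate 3 (0.178). With Oxy in Caco-2, where the libraries held 179, 167 and 192 CPM, the value was -0.16 (FDR 0.081). It passed on library size alone (-0.31, FDR 0.00121), with limma-trend (FDR 0.0322 and 0.0331), in the fit of all 18 libraries (0.0431) and without Caco-2 Oxy replicate 3 (0.0429).

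In order of their group means, IDH1 and SUCLG1 had Caco-2 control cells first, IDH2 and IDH3A had HT-29 cells without CoCl2 first, and CS had CoCl2-treated Caco-2 cells first. The highest group mean was 7.69 times the lowest for IDH2, 5.18 for SUCLG1, 3.01 for IDH1, 2.54 for OGDH and 2.1 for FH. Neighbouring groups in the order did not overlap at 4 of 5 steps for IDH1, IDH2 and SUCLG1. The fewest separated steps were those of CS, where only the first, from CoCl2-treated Caco-2 cells at 228 CPM to Oxy-treated HT-29 cells at 190.9 CPM, was clear of overlap, and MDH2, where none was.

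Set against each other at 300 µM and 5 µM, doses that are not matched, the agents left different levels of most members in Caco-2. There CS was higher with CoCl2 than with Oxy (0.35, SE 0.0796, FDR 0.000773) and 7 were lower, making 8 of 9 against 49.6% of all genes, 24.4% upwards and 25.2% downwards. None was called, against 11.7%. The differences ran from -0.87 for OGDH (SE 0.0895, FDR 2e-08) to -0.18 for SUCLG1 (SE 0.0746, FDR 0.0464). SUCLG1 did not pass without Caco-2 Oxy replicate 1 (FDR 0.232), Oxy replicate 2 (0.0894) or any of the 3 Caco-2 CoCl2 libraries (0.0695 to 0.0988), nor did IDH3A (-0.32) without Caco-2 Oxy replicate 2 (0.081). In HT-29, IDH1 (0.49) and SUCLG1 (0.51) were higher and IDH2 (-1.14) and IDH3A (-0.43) lower with CoCl2, making 4 of 9 against 77.7% of all genes, 37.1% upwards and 40.6% downwards. IDH2 was called, against 29.9% of all genes. On library size alone the IDH1 and SUCLG1 differences there were -0.0028 and 0.011, while the 5 members that had not passed were then lower with CoCl2.

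The difference in response between the lines was tested as an interaction in the fit of all 18 libraries. For CoCl2, 4 of 9 differed, against 49.8% of all genes, and 2 were called, against 21.6%. IDH1 differed by 1.93 log2 units (SE 0.0864, FDR 5.06e-19), OGDH by 1.14 (SE 0.103, FDR 2.92e-11) and SUCLG1 by 0.50 (SE 0.0923, FDR 2.92e-05), all higher in HT-29. CS differed by -0.25 (SE 0.0979, FDR 0.0313), which did not pass with DESeq2 size factors (FDR 0.217) or with DESeq2 (0.254). Nor did it pass without Caco-2 CoCl2 replicate 3 (0.179), HT-29 control replicate 3 (0.113), Caco-2 control replicate 1 (0.0686), HT-29 CoCl2 replicate 1 (0.0613) or Caco-2 control replicate 3 (0.051). The other members did not pass, and their intervals reached from -0.431 (IDH3A) to 0.287 (MDH1). On library size alone 7 of 9 passed, adding IDH3A, FH and MDH2 with values below 0.

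For Oxy, 6 of 9 differed between the lines, against 42.9% of all genes, and none was called, against 15.2%. IDH1 differed by 0.998 (SE 0.0857, FDR 1.5e-11), IDH2 by 0.60 (SE 0.117, FDR 7.56e-05) and FH by -0.53 (SE 0.106, FDR 9.43e-05). These 3 kept an FDR under 0.05 whichever library was left out. MDH1 (-0.26, FDR 0.028), CS (0.24, FDR 0.0421) and OGDH (0.25, FDR 0.0416) were near the threshold. OGDH did not pass in 10 of the 12 fits that left out a library (FDR up to 0.153, without Caco-2 Oxy replicate 1), CS in 9 (up to 0.115, without HT-29 control replicate 2) and MDH1 in 4 (up to 0.117, without HT-29 control replicate 3). Without the filter on low counts, OGDH (FDR 0.0829) and CS (0.0718) did not pass either.

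**Figure D3:**
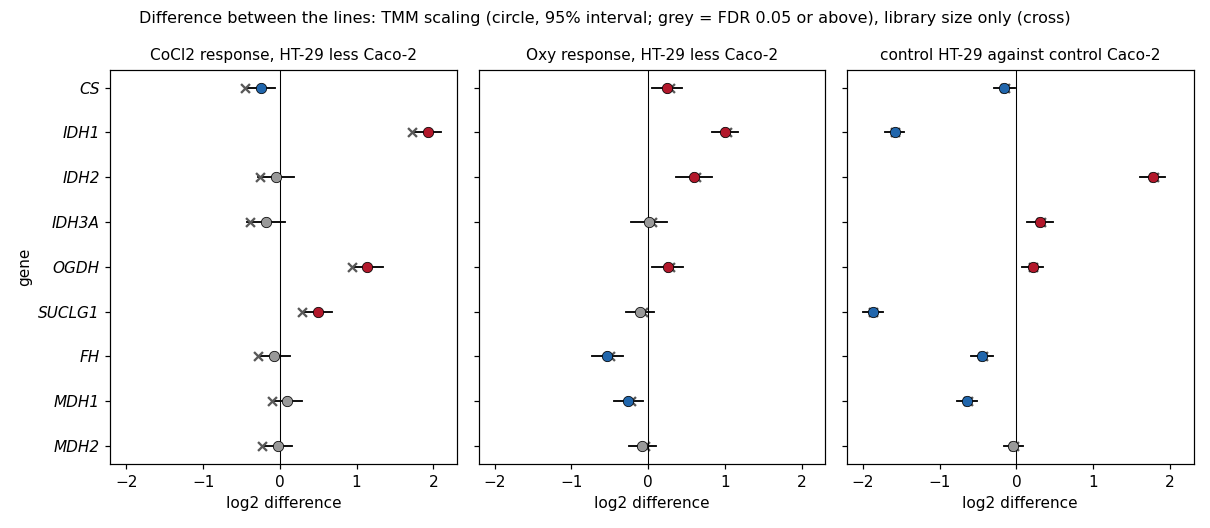
Log2 difference between the lines (x axis) for each enzyme mRNA (y axis): response to CoCl2, response to Oxy, and level in control cells, HT-29 less Caco-2; circles are TMM values with 95% intervals (grey where FDR was 0.05 or above) and crosses values on library size alone. IDH1 lay at 1.93 and 0.998 for the responses and at -1.59 for the control level, while the CoCl2 difference of MDH1 was 0.10 under TMM and -0.11 on library size alone.

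Ratios of 2 counts within a library do not depend on its scaling. In HT-29 the count ratio of IDH2 to IDH1, of the mitochondrial to the cytosolic enzyme, was 0.641, 0.655 and 0.532 in control cells, 0.195, 0.177 and 0.18 with CoCl2, and 0.588, 0.563 and 0.56 with Oxy. The CoCl2 libraries lay far below the controls, and the Oxy libraries fell within their range. In Caco-2 the ratio was lower throughout, and its mean went up, from 0.0588 ± 0.00365 (SD, n = 3) to 0.072 ± 0.0159 with CoCl2, which overlapped the controls, and to 0.0734 ± 0.0104 with Oxy, which lay above them. The ratio of MDH2 to MDH1 in Caco-2 fell with Oxy from 1.2 ± 0.02 to 1.03 ± 0.0886, with no overlap, and in HT-29 it was 1.84 ± 0.203 in control cells and 1.78 ± 0.0709 with Oxy. That of IDH3A to IDH2 in HT-29 was 0.175 ± 0.0157 in control cells, 0.2 ± 0.0142 with CoCl2 and 0.123 ± 0.00379 with Oxy, the last below all controls.

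A stratified exact permutation test of the mean change over both lines passed for none of the 6 ratio and agent pairs after Benjamini-Hochberg adjustment. The adjusted two-sided p was 0.15 for the IDH2 to IDH1 ratio with CoCl2 (mean log2 change -0.73, from a Caco-2 change of 0.27 and an HT-29 change of -1.72, the former being 0.103 without Caco-2 CoCl2 replicate 1) and 0.378 with Oxy. It was 0.67 and 0.15 for MDH2 to MDH1 and 0.15 and 0.15 for IDH3A to IDH2, in the order CoCl2, Oxy. Raw p-values ran from 0.03 to 0.67, and the smallest the test can give is 0.005. For a change that differs in sign between the lines, such as that of IDH2 to IDH1, the 2 lines partly cancel in this mean. Without HT-29 control replicate 3 the fall of MDH2 to MDH1 with Oxy reached an adjusted p of 0.03 (exact permutation test, -0.18). Without Caco-2 CoCl2 replicate 1 the rise of IDH3A to IDH2 with CoCl2 had an adjusted p of 0.045 (exact permutation test, 0.33, raw p 0.015). That adjustment covered the CoCl2 pairs only, because the Oxy pairs do not use this library. It is less strict than the adjustment over all 6 and cannot be set beside it.

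**Figure D4:**
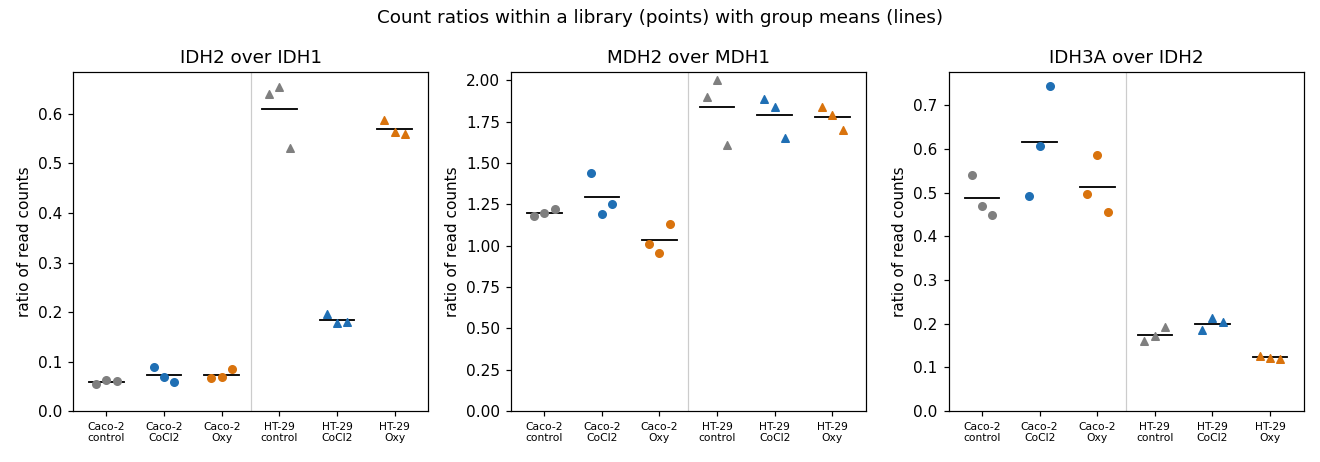
Count ratio within each library (y axis, from 0) for 3 pairs of enzyme mRNAs, by line and treatment (x axis), with group means as lines; the ratios do not depend on library scaling. The IDH2 to IDH1 ratio in HT-29 drops from a mean of 0.609 in control cells to 0.184 with CoCl2 and is 0.57 with Oxy, while all Caco-2 libraries lie between 0.0548 and 0.0892.

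The remaining subunits and isoforms of the cycle, 13 genes, fell in part with CoCl2 in Caco-2 and mostly rose in HT-29 under TMM. In Caco-2, 6 of 13 fell and 1 rose with CoCl2, against 33.1% and 31.6% of all genes, and on library size alone 11 fell and 1 rose. Under TMM, OGDHL (-0.85), an OGDH isoform, and SDHD (-0.80), an anchor subunit of succinate dehydrogenase, were lowest. The E2 subunit beside OGDH, DLST, rose by 0.50 (SE 0.0695, FDR 1.02e-06), and DLD, the shared E3 subunit, fell by -0.30 (SE 0.0937, FDR 0.00675). In HT-29, 10 of the 12 tested rose and 1 fell, against 40.7% and 42.2% of all genes, but on library size alone 2 rose and 5 fell. The partners of IDH3A rose with CoCl2 in HT-29, IDH3G by 0.86 (SE 0.0553, FDR 7.71e-14) and IDH3B by 0.63 (SE 0.0522, FDR 1.53e-11, but -0.0025 on library size alone), while IDH3A fell. Their values in Caco-2 were -0.11 (FDR 0.381) and -0.02 (FDR 0.817).

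Among the partners of SUCLG1, the GTP-forming beta subunit SUCLG2 fell with CoCl2 in HT-29 (-0.30, SE 0.0562, FDR 2.36e-05) and the ATP-forming SUCLA2 rose (0.35, SE 0.0511, FDR 6.45e-07), the latter turning to -0.28 on library size alone. Neither passed with CoCl2 in Caco-2 (-0.16, FDR 0.0537, and 0.21, FDR 0.0517) or with Oxy in either line. With Oxy, 2 of 13 rose and 2 fell in Caco-2, against 25.7% and 24.7% of all genes, while 1 rose and 8 fell on library size alone. OGDHL (-1.01) and DLD (-0.33) were lower, and SDHA (0.44) and DLST (0.26, FDR 0.199 on library size alone) were higher. In HT-29, 6 of 12 rose and 2 fell with Oxy, against 34.7% and 34% of all genes. They ran from SDHD (-0.40) and IDH3B (-0.17) to IDH3G (0.45) and ACO1 (0.52), the cytosolic aconitase. On library size alone 4 rose and 6 fell.

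Reactions that feed or drain the cycle by conversion of pyruvate, malate and citrate were given by 13 genes. With CoCl2, 4 rose and 8 fell in Caco-2, against 31.6% and 33.1% of all genes. In HT-29, 6 rose and 5 fell, against 40.7% and 42.2%, while on library size alone 3 rose and 9 fell in each line. With Oxy, 6 rose and 4 fell in Caco-2 (5 and 5 on library size alone), against 25.7% and 24.7% of all genes. In HT-29, 5 rose and 7 fell (5 and 8), against 34.7% and 34%. With CoCl2, LDHA, which makes lactate, rose by 2.75 (SE 0.0856, FDR 1.54e-18) in Caco-2 and 3.18 (SE 0.0633, FDR 5.99e-25) in HT-29. ME1, the cytosolic malic enzyme, rose with CoCl2 by 1.89 and 3.56. PCK2, the mitochondrial phosphoenolpyruvate carboxykinase, fell with CoCl2 by -1.72 and -2.78, and ME3, a mitochondrial malic enzyme, by -1.04 and -1.05. PCK1, the cytosolic carboxykinase, rose with Oxy by 2.75 (SE 0.15, FDR 2.18e-13) and 2.87 (SE 0.277, FDR 7.42e-10). LDHA rose by 2.51 with Oxy in Caco-2, and ME1 by 1.82 in HT-29. PCK2 (-0.85) and ME2 (-0.76) were lowest with Oxy in Caco-2, and DLAT (-0.81) and PDHB (-0.27), subunits of pyruvate dehydrogenase, in HT-29.

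Glutamate, aspartate and alanine enzymes, which exchange carbon with the cycle at 2-oxoglutarate and oxaloacetate, were given by 8 genes. With CoCl2 in Caco-2, 1 rose (GPT2, 0.43, FDR 0.185 on library size alone) and 5 fell, led by GLUD1, glutamate dehydrogenase (-1.20, SE 0.0757, FDR 1.2e-12), and GLS2 (-1.15, SE 0.331, FDR 0.00404). Of all genes, 31.6% rose and 33.1% fell there. In HT-29, 1 of 7 tested rose and 4 fell, against 40.7% and 42.2% of all genes. GPT (-0.46) and GOT1 (-0.39) were lowest, whereas on library size alone 6 fell. With Oxy in Caco-2, GLUD1 (-1.40) and GPT (-1.16) were the lowest of 4 that fell, and GOT1 (0.62) and GPT2 (0.27) rose, the counts being 5 and 1 on library size alone. Of all genes, 24.7% fell and 25.7% rose with Oxy in Caco-2. With Oxy in HT-29, 2 rose and 2 fell, against 34.7% and 34% of all genes. There GPT rose (0.55), and GPT2 (-0.41) and GOT2 (-0.40) fell.

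All 8 mitochondrial carriers of pyruvate, citrate, 2-oxoglutarate, dicarboxylates, aspartate and glutamate fell with CoCl2 in Caco-2, under TMM and on library size alone. Under TMM, 33.1% of all genes fell there. SLC25A10, the dicarboxylate carrier (-2.18, SE 0.281, FDR 3.2e-07), and SLC25A11, the 2-oxoglutarate carrier (-1.29, SE 0.135, FDR 1.01e-08), were lowest. In HT-29, 3 fell with CoCl2 and 5 rose, against 42.2% and 40.7% of all genes, although on library size alone none rose and 5 fell. SLC25A10 (-1.66) and SLC25A12 (-1.41), an aspartate-glutamate carrier, fell, and SLC25A22 (0.71), a glutamate carrier, and MPC1 (0.64), of the pyruvate carrier, rose under TMM. With Oxy, 1 rose and 3 fell in Caco-2 (1 and 6 on library size alone), against 25.7% and 24.7% of all genes. SLC25A1, the citrate carrier, rose by 0.42, with SLC25A13 (-0.35) and SLC25A11 (-0.35) lowest. In HT-29, 3 rose and 1 fell with Oxy, against 34.7% and 34% of all genes, but 3 rose and 4 fell on library size alone. SLC25A22 rose by 1.67 (SE 0.053, FDR 8.74e-20) and SLC25A1 by 0.93, and SLC25A12 fell (-0.42).

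**Figure D5:**
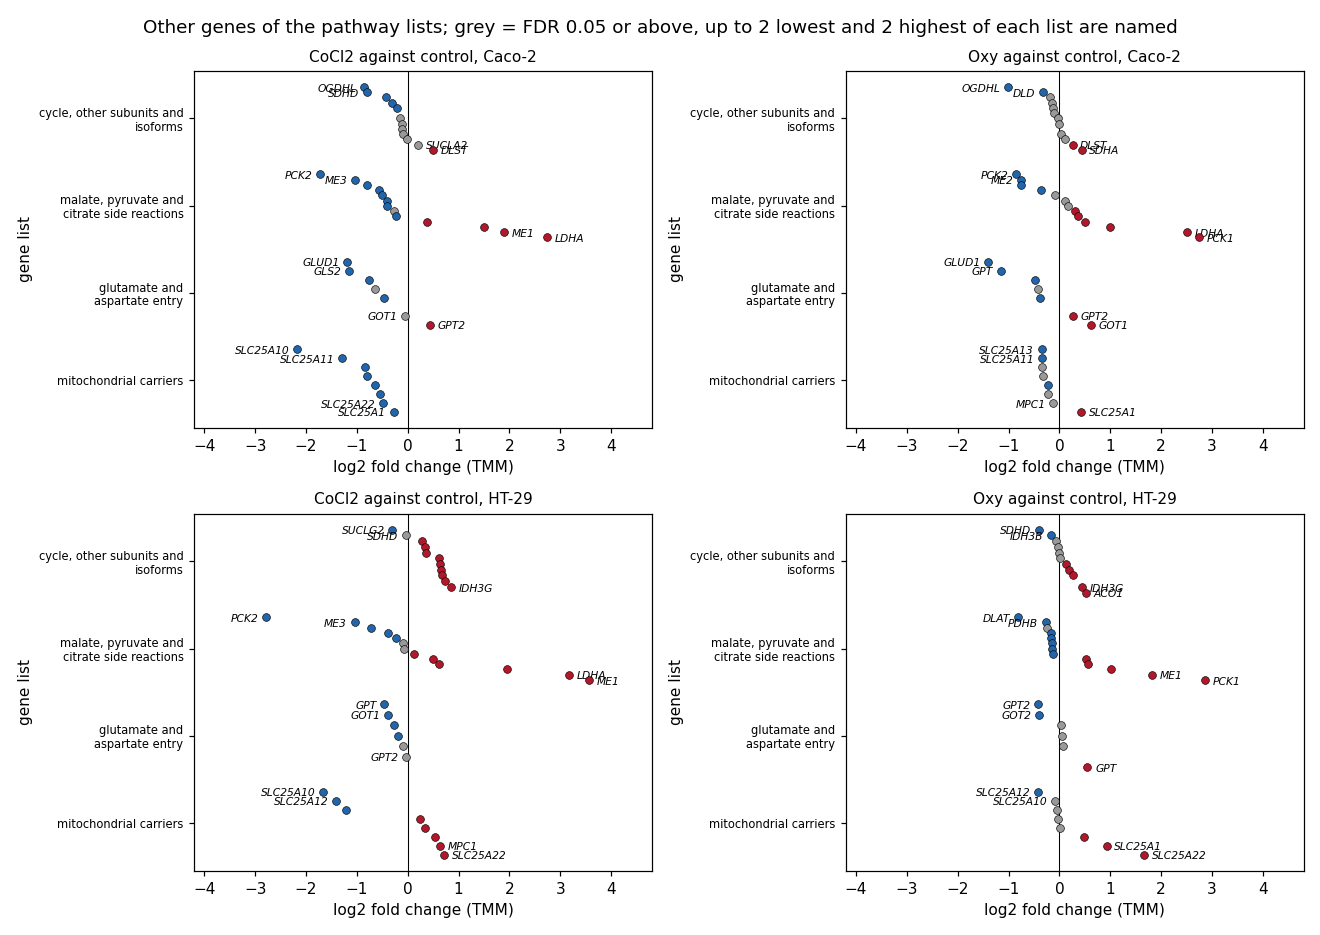
Log2 fold change against control under TMM (x axis) for the other genes of 4 pathway lists (y axis) in 4 comparisons; each point is a gene, grey where FDR was 0.05 or above, and 2 genes of the lists are not shown. LDHA and ME1 reach 3.18 and 3.56 with CoCl2 in HT-29, and the 8 carriers lie below 0 with CoCl2 in Caco-2, whereas most rises of the first list with CoCl2 in HT-29 were lost on library size alone.

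Likeness was described for the 7 members that passed the test in at least 3 of the 4 comparisons with control. Pearson's r was taken over the 18 libraries after centring log2 CPM within each line, against 8234 genes with a mean of at least 10 CPM in each line, libraries and depth being shared by all genes. IDH1 was most like CERK (r = 0.959), MEGF9 (0.946) and SLC25A16 (0.94), and IDH2 was most like RTKN (0.991), ITGA3 (0.977) and AC124067.4 (0.977). OGDH was followed by EMC10 (0.962), TMEM127 (0.952) and ZCCHC14 (0.95), and SUCLG1 by PRDX3 (0.958), TMX2 (0.939) and PTPRK (0.934). FH was closest to RBBP7 (0.965), FILIP1L (0.96) and CARMIL1 (0.955), MDH2 to TXN2 (0.882), ARMC6 (0.88) and TIMM10 (0.877), and CS to PPA1 (0.858), ZNF8 (0.858) and SSR3 (0.857). No member was among the 3 genes most like another of these 7. MDH1, which is outside the 7, was most like the member FH (0.898).

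On GRCh38 (GENCODE release 44), the 9 genes were located as follows. IDH1 (208236229 to 208266074), SUCLG1 (84423528 to 84460045) and MDH1 (63588609 to 63607197) lie on chromosome 2, the first 2 on the minus strand. IDH2 (90083045 to 90102477, minus strand) and IDH3A (78131498 to 78171945) lie on chromosome 15, and OGDH (44606572 to 44709066) and MDH2 (76048051 to 76067508) on chromosome 7. CS is on chromosome 12 (56271699 to 56300391) and FH on chromosome 1 (241497511 to 241519799), both on the minus strand. Counts were taken per whole gene. The neighbours that overlap members on the genome had few counts where they could be looked up. IDH1-AS1, antisense to IDH1, held at most 19 counts in a library, CIB2 and ACSBG1, on the other strand from IDH3A, at most 30 and 14, and WDPCP, opposite MDH1, at most 157. The FH pseudogene FHP1 held at most 3. Whether the counting used strand was not given in the sources used here. CS overlaps a second protein-coding gene model on its own strand, whose reads could not be looked up by name, so its level is uncertain to that extent.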

How the data were processed

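Caco-2 and HT-29 cells were profiled by stranded mRNA-seq with single reads of 75 bases. Per the study's methods and the submitters' processing notes, the authors trimmed reads with cutadapt 2.10 and aligned them with STAR 2.7.5b to GRCh38.p13 with GENCODE release 34. The processing notes also name FastQC 0.11.9 and edgeR 3.30.3, while the study's methods name DESeq2 for its tests. The counting program and its use of strand were not given in the sources used here. The authors deposited 1 table of raw counts per gene and 1 of log2(RPKM + 1) values, scaled within each line, from which RPKM was recovered for levels between genes. All per-sample columns used were matched to a sample, and miRNA tables were not used.

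Genes were filtered with filterByExpr and tested with edgeR 4.0.16 (R 4.3.3) by the quasi-likelihood F test on TMM-scaled counts, in 9 libraries per line for comparisons within a line and in all 18 libraries for differences between lines. FDR was Benjamini-Hochberg adjusted over all genes tested. Standard errors were the log2 fold change divided by the square root of F, and 95% intervals assumed a normal distribution. Count totals of 12925719 to 22332639 per library set the precision, and intervals cover these samples only. Replicates were called biological by the submitters, with nothing tying them to separate days. Same-numbered libraries did not deviate together, so no block was used. The count ratios were tested with an exact permutation test stratified by line. The scripts were tested on simulated data.

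Members and pathway lists were chosen with earlier results of these data known. All 9 members were named, with the complex partners and the 2 highest and 2 lowest genes past FDR in each pathway list and comparison (2 list genes are counted but not reported here), and the 3 genes most like each member that passed in at least 3 of 4 comparisons with control. Alternatives were library size only, DESeq2 size factors, DESeq2 1.42.0, no filter, limma-trend 3.58.1 on the deposited log2 values and with a pseudocount of 0.1, a replicate block, one fit of all 18 libraries, medians in place of means for the ratios, and leaving out each library. Promoter stretches came from RefSeq (GRCh38.p14) and gene overlaps from GENCODE release 44.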

Additional observations from a re-analysis of the deposited data

Results flagged for a closer look

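For 10 responses, the fit of all 18 libraries found a difference between the lines, given here as HT-29 less Caco-2 on the log2 scale, with edgeR's FDR. With CoCl2 these were IDH1 at 1.93 (FDR 5.06e-19), OGDH at 1.14 (2.92e-11), SUCLG1 at 0.50 (2.92e-05) and CS at -0.25 (0.0313). With Oxy they were IDH1 at 0.998 (1.5e-11), IDH2 at 0.60 (7.56e-05), FH at -0.53 (9.43e-05), MDH1 at -0.26 (0.028), OGDH at 0.25 (0.0416) and CS at 0.24 (0.0421). Every library of IDH1 moved down from the controls in Caco-2 and up in HT-29 with both agents, whereas OGDH did so with CoCl2 under TMM and moved down in both lines on library size alone. Of the 3 genes that passed with both agents, CS had differences of opposite sign, and IDH1 and OGDH were higher in HT-29 both times. Line and culture state cannot be told apart in any of these differences.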

How the results depend on the processing

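Most of the dependence lay in the scaling. On library size alone, 55 of 81 member values kept direction and side of the threshold, against 72 with DESeq2 size factors, 76 with DESeq2, 74 without the filter, and 48 of 54 each with limma-trend (either pseudocount) and the fit of all 18 libraries. Leaving out libraries kept 526 member values, weakened 46, strengthened 4 and turned 18. Of the counts of members, library size alone gave 3 called for CoCl2 in Caco-2 (0 under TMM) and 3 for CoCl2 in HT-29 (1), 5 past FDR for Oxy in Caco-2 (2), 1 called for CoCl2 against Oxy in Caco-2 (0), 7 past FDR for CoCl2 against Oxy in HT-29 (4), and for the CoCl2 difference between lines 7 past FDR (4) and 1 called (2). For CoCl2 in Caco-2, limma-trend with either pseudocount and the fit of all 18 libraries called 1 (IDH1, which lay at the limit), and leaving out a library called 0 to 1, with 1 without Caco-2 control replicate 1 or 2 or CoCl2 replicate 2 or 3. For CoCl2 in HT-29, no filter, limma-trend and the fit of all 18 libraries called 0. For the Oxy difference between lines, 1 was called on library size alone, with DESeq2 size factors and with DESeq2, 0 to 1 when a library was left out, and 3 to 5 were past FDR then (6 with all), 3 without Caco-2 control replicate 1 or HT-29 Oxy replicate 1.

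Directions turned on library size alone for CS with CoCl2 in Caco-2 (-0.0144), FH (-0.0976) and MDH1 (-0.0873) with Oxy in Caco-2, CS (-0.471), OGDH (-0.308) and SUCLG1 (-0.611) with CoCl2 in HT-29, and MDH1 (-0.107) in the CoCl2 difference between lines. For CoCl2 against Oxy in HT-29 they turned for IDH1 (-0.00281), OGDH (-0.391), FH (-0.495), MDH1 (-0.413) and MDH2 (-0.399). SUCLG1 with CoCl2 in HT-29 was -0.0335 without the filter, -0.0631 and -0.0659 with limma-trend, -0.085 in the fit of all 18 libraries and -0.0218 to 0.055 leaving out a library. FH for CoCl2 against Oxy in HT-29 was -0.0512, -0.0622, -0.0645, -0.0914 and -0.0395 to 0.0255 in the same settings, and MDH1 there was -0.0093 in the fit of all 18 libraries. In the CoCl2 difference between lines, DESeq2 size factors and DESeq2 gave 0.0539 and 0.0494 for IDH2, 0.0276 and 0.0268 for FH, and 0.0807 and 0.0794 for MDH2, and leaving out a library gave -0.174 to 0.0746, -0.132 to 0.012 and -0.0617 to 0.0208. Other values near 0 crossed it when a library was left out. With Oxy in Caco-2, CS ran from -0.0847 to 0.0025, OGDH from -0.135 to 0.017 and FH from -0.0023 to 0.138. MDH2 for CoCl2 against Oxy in Caco-2 ran from -0.093 to 0.0069, and IDH3A in the Oxy difference between lines from -0.0381 to 0.0573. None of the values that crossed 0 without a library had passed the test. The causes were not tested.

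Values near the FDR threshold also crossed it elsewhere. With DESeq2 size factors, edgeR's FDR was not under 0.05 for SUCLG1 for CoCl2 against Oxy in Caco-2 (FDR 0.0567), MDH2 with CoCl2 in HT-29 (0.0503) and the OGDH difference between control cells (0.0787). MDH1 in the Oxy difference between lines did not pass on library size alone (FDR 0.0549). The replicate numbers were used as a block in another fit, which kept 80 of 81 values and lost SUCLG1 for CoCl2 against Oxy in Caco-2 (-0.18, FDR 0.0673). Same-numbered libraries did not deviate together, with correlations of -0.0668 to 0.0673 in Caco-2 and -0.041 to 0.0225 in HT-29, so the numbers give no pairing. Leaving out a library, the mean log2 change of MDH2 to MDH1 was -0.0103 to 0.0683 with CoCl2 and -0.179 to -0.10 with Oxy, and that of IDH3A to IDH2 with CoCl2 was 0.184 to 0.333. Depth limited IDH3A most, at no fewer than 175 counts per library.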

Other observations

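Transcripts of the mitochondrial genome, which encodes subunits of the respiratory chain and no enzyme of the cycle, took 6.19% to 6.91% of counts in control Caco-2 libraries, 4.83% to 5.55% with CoCl2 and 4.48% to 4.84% with Oxy. In HT-29 they took 6.41% to 7.63% in control libraries, 7.89% to 8.33% with CoCl2 and 5.97% to 6.3% with Oxy. Both treated groups lay below the controls in Caco-2. In HT-29 the CoCl2 libraries lay above the controls and the Oxy libraries below them. These are shares of all counts, so they do not depend on TMM. The 9 nuclear-encoded enzymes together held a lower share with CoCl2 in both lines. In HT-29 their share and that of the mitochondrial transcripts moved apart, but only as plain shares. After TMM, the 9 enzymes summed to 1091.8 to 1157.5 CPM in HT-29 control libraries. With CoCl2 they summed to more, 1222.5 to 1226.8 CPM. In Caco-2 the TMM-scaled sum was lower with CoCl2, at 1212.3 to 1304.3 CPM against 1769.4 to 1842.5 CPM. IDH1 was the largest part of each sum. Its mean went from 230.4 to 440.3 CPM with CoCl2 in HT-29, a larger rise than that of the sum. In Caco-2 it went from 692.7 to 346.2 CPM. These sums therefore do not describe the other members. The parting of shares in HT-29 thus depends on the scale and is not read as a result about the enzymes. It was not tested.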
